A study of Mus musculus with 14 samples.

Results

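The genes described here encode the proteins of the cytosolic ribosome, and they were followed in whole testis RNA and in RNA brought down with tagged ribosomes from male germ cells. Members were the protein-coding GENCODE M21 genes with an Rpl or Rps symbol, without the S6 kinases, named pseudogenes, the tagged Rpl22 and 4 other genes that have close paralogues (Rpl10, Rpl39, Rps4x and Rps27), each left out together with its paralogue. The rule gave 75 of 53239 annotated symbols, 46 of the large subunit and 29 of the small subunit, with 426 annotated transcripts. No measured value entered the rule.

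The study used 7 male C57BL/6 mice at 21 days post partum. Of these, 4 were homozygous for a mutation of Adad2, a testis-specific RNA-binding protein with an adenosine deaminase domain (Adad2 M/M, MUT), and 3 were wild type for it (Adad2 +/+, WT). All animals of both genotypes were heterozygous for Rpl22-HA, the RiboTag allele that adds an HA tag to ribosomal protein RPL22, and for Stra8-iCre, a Cre driven by the promoter of a gene of differentiating spermatogonia. Each testis lysate gave an anti-HA immunoprecipitate (IP) and the input collected before it, hence 14 libraries: 4 MUT IP, 4 MUT input, 3 WT IP and 3 WT input. The tag is made only in germ cells in which Cre has acted and in their descendants, and a tagged large subunit brings down whatever mRNA is bound to it, translated or not.

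Each cytosolic ribosome is built from ribosomal RNA and a set of proteins, most of which are present at a single copy, so the mRNAs for these proteins are made in coordinated amounts. Many of them begin with a C followed by a run of pyrimidines, the 5′ terminal oligopyrimidine (TOP) tract, through which mTOR signalling and the LARP1 protein control their translation. Ribosomal protein genes have also left many processed pseudogenes in mammalian genomes, and short reads from the mRNA can match those copies as well. In the testis, ribosome production is known to be high in spermatogonia.

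The libraries held 25037235 to 30871330 estimated fragments in IP and 22987974 to 30330450 in input. Fewer annotated genes were above 0 in MUT IP (12744 to 15024) than in WT IP (19655 to 21880), and the inputs of MUT animals 12 and 69 (16024 and 15438 genes) lay below all other inputs (21334 to 27791). Spermatogonial and Sertoli cell markers matched the label of a tagged germ cell fraction. Round spermatid markers, given below, were lower in IP as a sum but mixed as single genes. The summed level of 8 spermatogonial markers was 1326 to 1883 CPM (counts scaled to a common library total, with TMM factors) in MUT IP and 432 to 683 CPM in MUT input. In WT it was 1298 to 1495 CPM in IP and 465 to 539 CPM in input. Sertoli cell markers were lower in IP, with 162 to 286 CPM in MUT IP against 1054 to 1633 CPM in MUT input, and 225 to 383 CPM in WT IP against 989.6 to 1118 CPM in WT input. Between genotypes, late pachytene markers were lower in MUT without overlap, at 5853 to 6248 CPM in MUT IP and 7833 to 8923 CPM in WT IP. The part of these shifts in cell content in the results below was not tested, and in bulk tissue fewer cells of a type cannot be told apart from less RNA per cell. The summed level of 8 round spermatid markers was 97.4 to 143.9 CPM in MUT IP against 144.5 to 160.5 CPM in MUT input. In WT it was 197 to 205 CPM in IP against 261 to 311.5 CPM in input. Of these, Tnp1, Prm1 and Gapdhs were at 0 in all 4 MUT IP libraries, and averaged only 0.159, 0.281 and 2.43 CPM in WT IP. Dnajb3, Spaca1, Acrv1 and Akap3 averaged 84.2, 13.9, 10.2 and 6.94 CPM in MUT IP, and 116.9, 24.4, 39.0 and 17.4 CPM in WT IP. Their inputs averaged 95.3, 13.3, 8.55 and 30.2 CPM in MUT, and 162.2, 25.7, 16.3 and 71.3 CPM in WT. By these means Acrv1 was higher in IP in both genotypes, and Spaca1 slightly so in MUT. In WT, edgeR called 1 of 7 tested round spermatid markers higher in IP and 2 lower (adjusted p under 0.05).

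Ribosomal protein mRNA took a larger share of the IP libraries than of the inputs. The 75 genes together held 1.93%, 1.95%, 2.33% and 2.37% of annotated counts in the IP of MUT animals 12, 69, 93 and 94, against 1.43%, 1.22%, 1.25% and 1.35% in their inputs. In WT animals 121, 140 and 17 the shares were 1.70%, 1.78% and 1.77% in IP, against 1.19%, 1.22% and 1.34% in input. By counts, every IP library lay above every input library, and the 4 MUT IP libraries lay above the 3 WT IP libraries, while the inputs of both genotypes overlapped. The mean share was 2.15 ± 0.24% in MUT IP and 1.31 ± 0.10% in MUT input (SD, n = 4 each), and 1.75 ± 0.04% in WT IP and 1.25 ± 0.08% in WT input (SD, n = 3 each). In TPM, the transcript abundance that divides by transcript length, the shares were 5.17% in MUT IP, 1.46% in MUT input, 4.71% in WT IP and 1.76% in WT input. By TPM the IP libraries of the genotypes overlapped (4.90% to 5.42% in MUT and 4.43% to 5.12% in WT). The inputs did not overlap by TPM, with 1.37% to 1.55% in MUT and 1.69% to 1.82% in WT.

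Large-subunit genes held more counts than small-subunit genes in all 14 libraries. These are sums over 46 large-subunit and 29 small-subunit genes, so a ratio above 1 does not mean more counts per gene. The ratio of large to small was 1.61, 1.63, 1.82 and 1.82 in MUT IP, against 1.64, 1.90, 1.96 and 1.91 in the inputs of the same animals. WT IP had ratios of 1.72, 1.78 and 1.59, against 1.90, 1.85 and 1.70 in WT input. By summed counts the ratio was lower in IP than in input within each of the 7 animals: IP over input of the ratio averaged 0.930 ± 0.055 in MUT (SD, n = 4) and 0.937 ± 0.029 in WT (SD, n = 3). Both subunits took a larger share of IP: the share of the small subunit was 1.73-fold higher in MUT IP than in MUT input and 1.46-fold higher in WT IP than in WT input, and that of the large subunit 1.60-fold and 1.37-fold. The ratio depends on how genes are weighted, since the geometric mean of TPM per gene was lower for the large subunit than for the small one (ratio 0.855 in MUT IP, 0.864 in MUT input, 0.789 in WT IP and 0.804 in WT input). The lower ratio in IP depends on it too, as it was lower in IP in 3 of 4 MUT and 2 of 3 WT animals by sums of TPM, and in 2 of 4 MUT and 2 of 3 WT animals by the geometric mean. With the reads of near-identical copies added to the counts it was lower in 3 of 4 MUT animals (mean ratio 1.65 in IP and 1.70 in input) and 2 of 3 WT animals (1.64 in IP and 1.66 in input). By sums of TPM with copies added it was higher in IP in 7 of 7 animals.

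**Figure D1:**
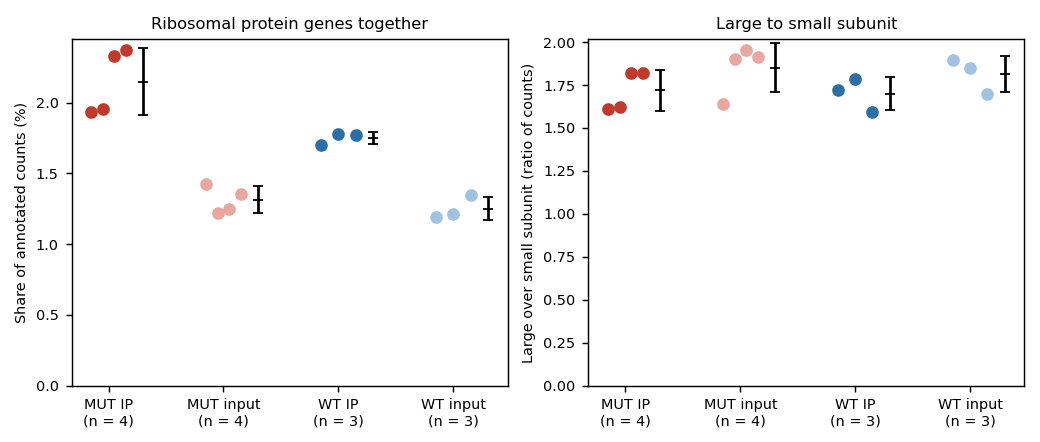
Left, the share of annotated counts (%) held by the 75 ribosomal protein genes together; right, the ratio of large-subunit to small-subunit counts; points are libraries (MUT IP and MUT input, n = 4 each; WT IP and WT input, n = 3 each) and bars are the mean ± SD. The shares in MUT IP (1.93% to 2.37%) lie above those in WT IP (1.70% to 1.78%), and those in both inputs lie below 1.5%.

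Levels differed widely between members. Averaged over the 7 inputs and per transcript length, Rps24, a small-subunit protein mutated in Diamond-Blackfan anaemia, was the highest at 913 TPM, followed by the large-subunit genes Rpl32 at 623 TPM and Rpl26 at 578.5 TPM. Other high levels were those of Rplp0, the base of the ribosomal stalk, at 440.1 TPM, Rpl41, the smallest ribosomal protein, at 420.0 TPM, and the small-subunit genes Rps14 and Rps15a at 380.1 and 337 TPM. The 3 lowest large-subunit genes were Rpl3l, the muscle paralogue of Rpl3, at 0.503 TPM, Rpl12, which sits at the base of the stalk, at 2.53 TPM, and Rpl27 at 12.0 TPM. The 3 lowest small-subunit genes were Rps26, Rps12 and Rps16 at 6.55, 13.1 and 24.6 TPM. Low levels occurred with and without reads shared with annotated copies. Rpl3l, Rps26, Rpl7l1 and Rpl6, at 0.503, 6.55, 12.7 and 20.7 TPM, held 97.8% or more of the reads of the gene and those copies. Others shared most of theirs. Of the reads assigned to the gene or to an annotated near-identical copy (at least 95% identity over at least 80% of the coding sequence), the gene itself held 1.58% for Rpl12, 2.72% for Rps12, 8.64% for Rpl27 and 33.5% for Rps16 in input. In all, 511 such copies of 70 members were found, 498 of them annotated pseudogenes, and 16 members held under 50% of their own reads. A low value for these 16 genes cannot be read as a low level of the mRNA. The shares leave out reads assigned to assembled testis transcripts or to more diverged copies. The part of such reads in the low values of Rpl3l, Rps26, Rpl7l1 and Rpl6 was not tested.

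The annotated starts of these genes are shown because the TOP tract is the sequence feature that the family is known for. RefSeq promoter entries (GRCm38.p6) existed for 55 of the 75 genes. A C at the annotated start followed by at least 4 pyrimidines was found in 12 of the 55 (21.8%, 7 of 34 large-subunit and 5 of 21 small-subunit genes), against 3.0% of all 27025 promoters of the same length. Allowing the C with its 4 pyrimidines to begin within 5 bases of the annotated start, inside a longer run or not, 25 of 55 (45.5%) matched, against 21.2% of all promoters. TATAAA on either strand was found in 4 of 55 (7.3%), against 15.7% of all, and GGAA on either strand in 55 of 55, against 96.5% of all. Of the 12 windows with the run, 7 are shown. The 30-base windows run from 10 bases before the annotated start, 5′ to 3′ on the coding strand, and capitals mark the pyrimidine run that begins with the C at the start.
Rplp2 (chr7:141447641-141447670, +): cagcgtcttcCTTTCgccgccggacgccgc
Rpl14 (chr9:120571507-120571536, +): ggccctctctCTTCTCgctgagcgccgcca
Rps15a (chr7:118116128-118116157, -): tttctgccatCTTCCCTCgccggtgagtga
Rpl15 (chr14:18270967-18270996, -): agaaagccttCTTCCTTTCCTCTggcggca
Rpl35 (chr2:39005112-39005141, -): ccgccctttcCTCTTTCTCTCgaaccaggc
Rpl35a (chr16:33056472-33056501, +): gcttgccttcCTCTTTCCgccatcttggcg
Rps6 (chr4:86857348-86857377, -): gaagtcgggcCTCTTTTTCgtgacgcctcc
Windows of genes on which the results below turn, and that have no such run at the annotated start itself, are these, with no capitals. For Rpl19 and Rpl34, a C followed by 4 pyrimidines begins within 5 bases of the start given in a RefSeq entry, so that both are among the 25 genes above. In Rpl34 it is part of a longer run that already holds the first base of the window.
Rplp0 (chr5:115559457-115559486, +): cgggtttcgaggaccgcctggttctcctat
Rpl41 (chr10:128549149-128549178, -): gggccggctcggaagtgacgacaccgagca
Rpl19 (chr11:98026700-98026729, +): aaacgccctcactgcgcatgtgcgccgcgg
Rpl34 (chr3:130730318-130730347, -): cttttcctcttccggggacggtgctcagag
Rpl11 (chr4:136053374-136053403, -): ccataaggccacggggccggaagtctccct
Rps13 (chr7:116334171-116334200, -): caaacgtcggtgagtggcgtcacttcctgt
Such a match describes the annotation and is not a mapped start site.

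Many ribosomal protein mRNAs were higher in IP than in the input of the same animals, in both genotypes. In MUT, 33 of 74 tested members were higher in IP and 2 lower (edgeR, adjusted p under 0.05), where 6.35% of all tested features were higher and 3.56% lower. The members' median log2 fold change was 0.79 and 60 of 74 lay above 0, beside a median of -0.63 over all 22918 features. In WT, 52 of 75 members were higher in IP and 2 lower, where 13.0% of all tested features were higher and 6.37% lower, and the median was 0.96 with 67 of 75 above 0, beside -0.60 over all 34864 features. Among annotated protein-coding genes alone, 9.78% were higher and 4.57% lower in MUT IP, and 24.8% were higher and 7.76% lower in WT IP, with medians of -0.14 in MUT and 0.19 in WT. DESeq2 called 46 members higher and 4 lower in MUT IP (13.9% and 29.9% of all features), and 60 higher and 5 lower in WT IP (22.9% and 31.2%).

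By subunit, 19 large-subunit genes were higher in MUT IP and 2 lower (median 0.73), as were 32 and 2 in WT (median 0.94). Of the small-subunit genes, 14 were higher in MUT IP (median 0.85) and 20 in WT IP (median 0.99). In edgeR 0 small-subunit genes were lower in either genotype, with 1 in MUT and 2 in WT lower at an unadjusted p under 0.05, the same numbers as in DESeq2. Rps7, named here because of its values, was at -0.61 in MUT and -0.26 in WT (edgeR, adjusted p = 0.0728 and 0.0977). DESeq2 called it lower in both (adjusted p = 6.91e-05 and 0.000953), and it held 72.4% of its reads in input. All 33 genes called higher in MUT were among the 52 called higher in WT (63.5% of those), and Rplp0 and Rpl41 were the 2 lower genes in both. The 2 comparisons share no library. Across the 74 members tested in both, the log2 fold changes had r = 0.75 and rho = 0.80, given as a description because genes are not independent replicates. Of the 12 genes with a TOP run at the annotated start, 11 were called higher in WT IP (median 1.13), Rps6 being the exception, as were 27 of the 43 without it (median 0.87). In CPM, 56, 59, 60 and 59 members were higher in IP than in input in MUT animals 12, 69, 93 and 94, and 66, 63 and 60 in WT animals 121, 140 and 17.

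The number of calls rested on few animals. With WT animal 121 or 140 left out, 0 of 75 members were called by edgeR, and 0 features of the whole table, while 54 members were higher and 3 lower with unadjusted p under 0.05 in either case. Without animal 17 the count was 40. The members' median log2 fold change was 0.865 without animal 121, 0.975 without 140 and 0.92 without 17. In MUT, the count was 15 without animal 93 and 15 without animal 94, and 0 with animals 12 and 69 both left out (50 higher and 3 lower with unadjusted p under 0.05). With all animals, 60 members were higher and 5 lower in WT at that unadjusted p, beside 18.5% and 14.8% of all features. In MUT they were 48 and 3, beside 11.8% and 11.3%. These shares are not given for the fits with animals left out, so the unadjusted counts there stand without a background. Of the genes described below, Rpl11, Rpl36al and Rps3 lost their call in MUT without animal 93 or without animal 94, Rps15a without animal 12, 69 or 93, and Rpl34 without animal 94. In WT, Rpl36al, Rps24 and Rpsa lost theirs without animal 17 as well. Their log2 fold changes kept their direction in each case, and that of Rps3 in MUT was 0.88 without animal 93 and 0.85 without animal 94. Scaling moved the size too: without the TMM factor the WT median was 0.57 (36 higher and 4 lower), beside -0.98 over all features, and the MUT median was 0.79 beside -0.63 over all features.

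**Figure D2:**
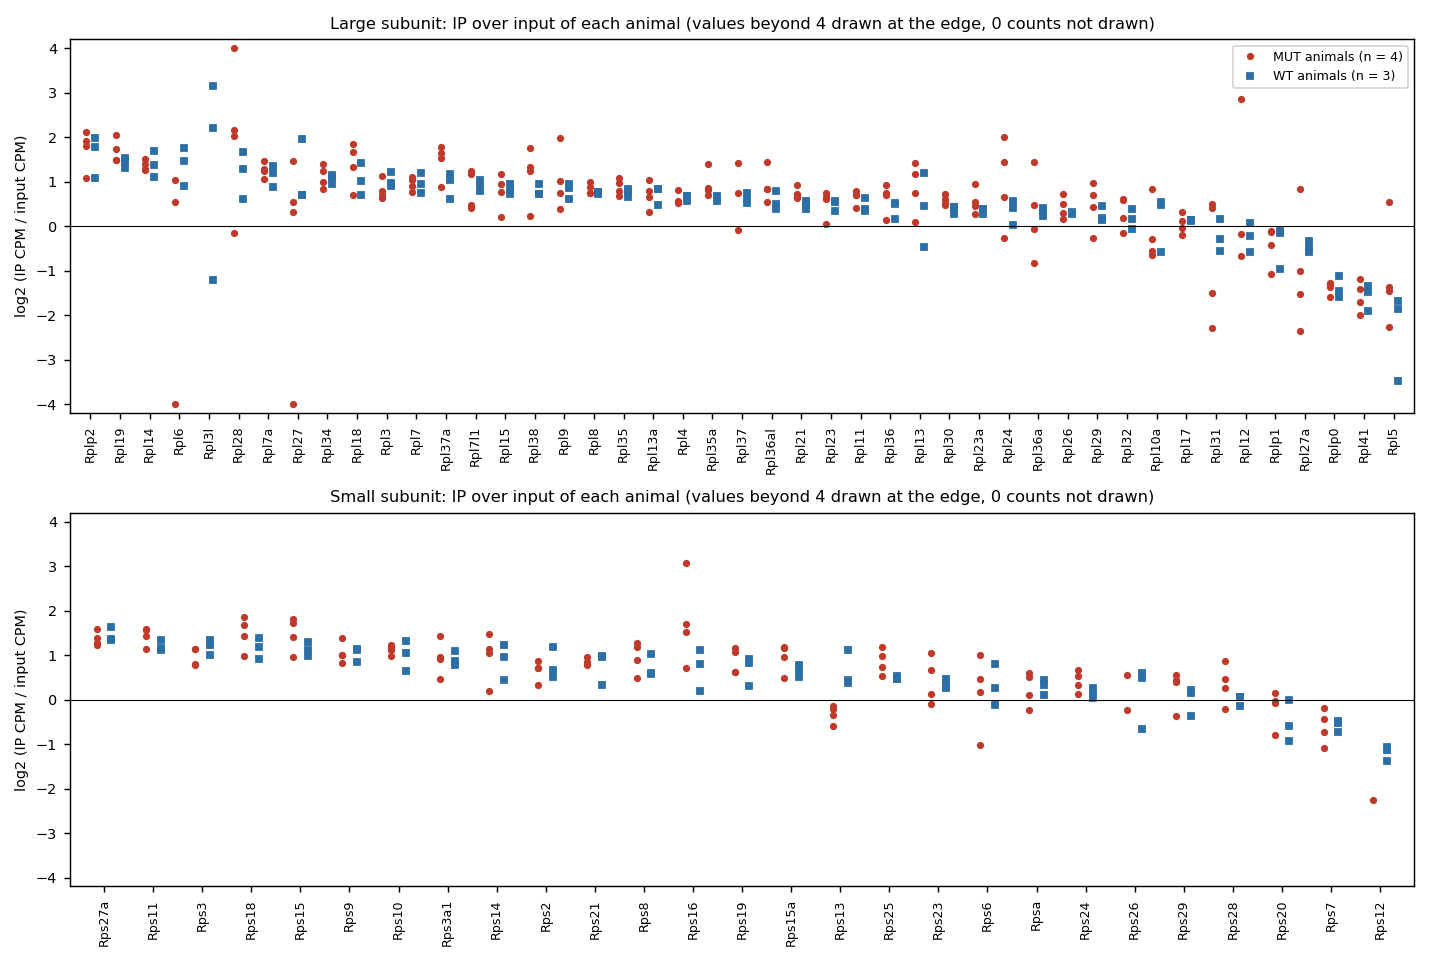
Log2 of IP CPM over input CPM (y axis) in each MUT animal (circles, n = 4) and each WT animal (squares, n = 3) for the large-subunit genes (top) and small-subunit genes (bottom) described here, in the order of the WT mean, with values beyond 4 drawn at the edge and values from a count of 0 not drawn. Most points lie above 0, Rplp2 and Rps27a stand at the left of their panels, and Rplp0, Rpl41 and Rpl5 stand at the right of the large subunit.

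The clearest large-subunit example was Rpl19, a protein that takes part in a bridge between the subunits (ENSMUSG00000017404, chr11:98026710-98030492, + strand of GRCm38). Rpl19 had 553, 473, 743 and 692 CPM in MUT IP against 197, 142, 179 and 246 CPM in MUT input, and 481, 521 and 521 CPM in WT IP (animals 17, 121 and 140) against 195, 190.2 and 179.8 CPM in WT input; WT values keep this order of animals below. IP and input did not overlap in either genotype. The log2 fold change was 1.69 ± 0.14 in MUT (edgeR, adjusted p = 0.00194, n = 4 animals) and 1.74 ± 0.09 in WT (edgeR, adjusted p = 0.00634, n = 3 animals), where ± is the standard error.

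Rpl14, which carries the TOP run shown above, had 470.2, 560.2, 800.2 and 817 CPM in MUT IP against 195, 229.5, 304 and 288 CPM in MUT input. In WT it had 397, 544 and 579 CPM in IP against 183, 169 and 224 CPM in input. The fractions again did not overlap, with log2 fold changes of 1.36 ± 0.11 in MUT (edgeR, adjusted p = 0.00208) and 1.70 ± 0.16 in WT (edgeR, adjusted p = 0.0085). Rpl34, whose pyrimidine run spans the annotated start without a C at it, ranged from 201 to 282 CPM in MUT IP against 85.0 to 142 CPM in MUT input, and from 220.1 to 243 CPM in WT IP against 109 to 114 CPM in WT input (log2 fold change 1.12 in MUT and 1.37 in WT, edgeR adjusted p = 0.0076 and 0.00634). Rpl7a, which binds ribosomal RNA in the large subunit, had 667, 518, 692 and 696 CPM in MUT IP against 318, 189, 282 and 295 CPM in MUT input, and 529, 552 and 554 CPM in WT IP against 288, 218 and 243 CPM in WT input. Its log2 fold change was 1.26 ± 0.10 in MUT and 1.45 ± 0.13 in WT (edgeR, adjusted p = 0.00201 and 0.00848). Rpl7, another structural protein of the large subunit, was higher in IP as well (0.95 in MUT and 1.28 in WT, edgeR adjusted p = 0.00325 and 0.0104).

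Rpl32 and Rpl26 were the large-subunit genes of highest input TPM, and their log2 fold changes were smaller than those of the genes above, a difference between genes that was not tested. Rpl26, a protein near the exit tunnel, had 332, 316, 501 and 479.5 CPM in MUT IP against 269.7, 283, 305 and 338 CPM in MUT input, with overlap, and a log2 fold change of 0.42 ± 0.15 (edgeR, adjusted p = 0.165). In WT it had 361, 374 and 371 CPM in IP against 298, 304 and 295 CPM in input, without overlap, at 0.61 ± 0.07 (edgeR, adjusted p = 0.0123). Rpl32 had 294 to 501 CPM in MUT IP and 312 to 331 CPM in MUT input, and 303 to 392.1 CPM in WT IP and 299 to 316 CPM in WT input. Its fractions overlapped in both genotypes and neither change passed the test (0.31 in MUT and 0.47 in WT, edgeR adjusted p = 0.392 and 0.0616).

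The stalk proteins went in different directions. The stalk is the flexible arm of the large subunit that recruits the translation GTPases, in which RPLP0 anchors dimers of RPLP1 and RPLP2, and all of these proteins end in the same short acidic tail. Their last 42 coding bases, stop codon included (GENCODE M21 transcripts, GRCm38), show how alike the mRNAs are there, and capitals mark the 30 bases shared by all of them.
Rplp0 (chromosome 5): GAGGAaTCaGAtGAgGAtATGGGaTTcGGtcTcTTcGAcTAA
Rplp1 (chromosome 9): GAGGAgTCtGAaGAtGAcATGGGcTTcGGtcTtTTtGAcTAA
Rplp2 (chromosome 7): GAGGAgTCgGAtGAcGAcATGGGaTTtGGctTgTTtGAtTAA
Rplp0 and Rplp1 were identical at 34 of the 42 bases, Rplp1 and Rplp2 at 33, and Rplp0 and Rplp2 at 32.

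Rplp0 (chr5:115559467-115563727, +) was lower in IP. It had 218, 229, 254 and 275.5 CPM in MUT IP against 652.5, 565, 616 and 710.3 CPM in MUT input, and 261, 234 and 252 CPM in WT IP against 788, 638 and 548 CPM in WT input. All IP libraries lay below all inputs, and the log2 fold change was -1.38 ± 0.11 in MUT (edgeR, adjusted p = 0.0019) and -1.08 ± 0.11 in WT (edgeR, adjusted p = 0.0107). Rplp2 (chr7:141447370-141451585, +) was higher in IP, with 272, 382, 527 and 527 CPM in MUT IP against 128, 101.1, 122 and 151 CPM in MUT input, and 283, 317 and 394 CPM in WT IP against 133.5, 91.6 and 98.9 CPM in WT input. Here all IP libraries lay above all inputs (1.73 ± 0.21 in MUT and 1.94 ± 0.22 in WT, edgeR adjusted p = 0.00575 and 0.0121). Rplp1 (chr9:61913284-61914542, -) had 117, 134, 166 and 205 CPM in MUT IP and 247, 179.7, 183 and 219 CPM in MUT input, and 120.3, 142 and 155 CPM in WT IP and 234, 154 and 172 CPM in WT input. Its fractions overlapped in both genotypes, and no change passed the test (-0.44 in MUT and -0.10 in WT, edgeR adjusted p = 0.292 and 0.771).

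Rpl41 was the other gene that edgeR called lower in IP. RPL41 is a very short basic peptide that lies between the subunits. Its whole coding sequence (GENCODE M21, - strand, within chr10:128548390-128548960) is short enough to show, with the start and stop codons in capitals.
Rpl41: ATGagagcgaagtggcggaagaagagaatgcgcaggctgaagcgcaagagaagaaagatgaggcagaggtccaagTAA
Rpl41 had 65.1, 59.5, 66.9 and 52.5 CPM in MUT IP against 259.6, 158, 152 and 170.4 CPM in MUT input, and 67.0, 65.4 and 65.5 CPM in WT IP against 249.6, 165 and 181 CPM in WT input. Every IP library lay below every input, and the 7 IP values spanned a narrower range than the inputs. The log2 fold change was -1.57 ± 0.19 in MUT (edgeR, adjusted p = 0.00549) and -1.25 ± 0.16 in WT (edgeR, adjusted p = 0.0145).

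**Figure D3:**
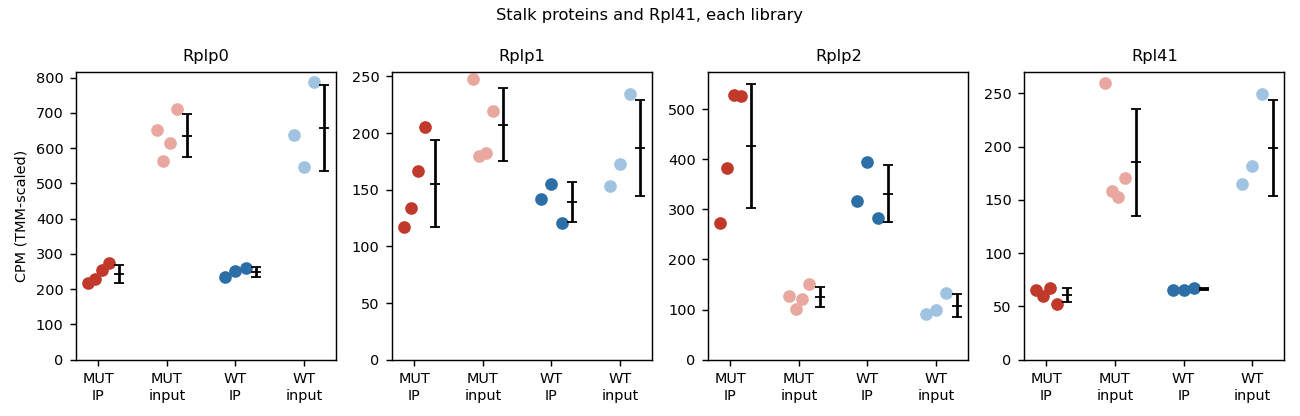
Level (TMM-scaled CPM) of Rplp0, Rplp1, Rplp2 and Rpl41 in each library (points; MUT IP and MUT input, n = 4 each; WT IP and WT input, n = 3 each) with the mean ± SD. Rplp0 and Rpl41 are lower in every IP library than in every input, Rplp2 is higher, and Rplp1 overlaps.

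For both genes that edgeR called lower, Rplp0 and Rpl41, the fall was not shared by all their transcripts. Of Rpl41, the 437-base protein-coding transcript ENSMUST00000176683 averaged 0.068 CPM in MUT IP against 109 CPM in MUT input, and 3.12 CPM in WT IP against 118 CPM in WT input. The 544-base transcript ENSMUST00000177163 averaged 29.2 CPM in MUT IP against 12.5 CPM in MUT input, and 22.4 CPM in WT IP against 16.2 CPM in WT input, so that it was higher in IP. Of Rplp0, the 1358-base transcript ENSMUST00000086519 averaged 131 CPM in MUT IP against 518 CPM in MUT input and 205 CPM in WT IP against 607 CPM in WT input. ENSMUST00000156359 averaged 43.3 CPM in MUT IP (23.7 to 70.9) against 6.25 CPM in MUT input (0 to 21.9). In WT it averaged 19.8 CPM in IP (0 to 40.8) against 1.87 CPM in input (0.596 to 3.59), where the fractions overlapped. These are RSEM's estimates of how reads divide between overlapping transcripts, and they were not tested. On the log2(TPM + 0.1) scale, Rpl41 was at -0.97 in MUT and -1.20 in WT and Rplp0 at -0.19 in MUT and -0.60 in WT, and none of these passed the test (limma, adjusted p = 0.126, 0.0514, 0.727 and 0.195). The mean fragment length that RSEM used was 153 to 155 bases in MUT IP, 156 to 171 bases in MUT input, 159.5 to 164 bases in WT IP and 168.5 to 174 bases in WT input, and its part in the estimates for so short an mRNA was not tested.

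Among small-subunit genes, Rps27a is the leading example. It encodes a fusion of ubiquitin with a ribosomal protein and so supplies both. Rps27a had 382, 226, 349 and 312 CPM in MUT IP against 158, 95.8, 116 and 119 CPM in MUT input, and 353, 315 and 351 CPM in WT IP against 139.8, 122 and 114 CPM in WT input. The fractions did not overlap, and the log2 fold change was 1.37 ± 0.13 in MUT and 1.76 ± 0.09 in WT (edgeR, adjusted p = 0.00317 and 0.00634). Rps15, a protein of the small-subunit head, had 230.5, 238, 291 and 357 CPM in MUT IP against 118, 90.1, 88.0 and 101.3 CPM in MUT input, and 231, 224 and 245 CPM in WT IP against 117, 103 and 99.5 CPM in WT input, again without overlap (1.48 ± 0.20 in MUT and 1.45 ± 0.09 in WT, edgeR adjusted p = 0.00911 and 0.00642). Rps3, which lines the mRNA entry channel, ranged from 415 to 586 CPM in MUT IP against 223 to 265.5 CPM in MUT input, and from 449 to 478.5 CPM in WT IP against 179 to 228 CPM in WT input (0.96 in MUT and 1.51 in WT, edgeR adjusted p = 0.0109 and 0.00643).

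Rps15a, which has the TOP run, had 335, 239, 325 and 285 CPM in MUT IP against 148, 107.5, 166 and 202 CPM in MUT input, and 289, 266 and 273 CPM in WT IP against 202, 155 and 173 CPM in WT input, without overlap (0.95 ± 0.12 in MUT and 0.96 ± 0.10 in WT, edgeR adjusted p = 0.00724 and 0.0106). The most abundant member, Rps24, had 605, 546, 694 and 584 CPM in MUT IP against 480.0, 344.5, 478 and 535 CPM in MUT input, and 588, 543 and 531 CPM in WT IP against 491, 478 and 517.5 CPM in WT input. Its fractions did not overlap, with 0.41 ± 0.10 in MUT (edgeR, adjusted p = 0.0605) and 0.47 ± 0.09 in WT (edgeR, adjusted p = 0.0379). Rps14, of the small-subunit platform, was likewise called in WT only (1.19, edgeR adjusted p = 0.0264) and reached 0.97 in MUT (edgeR, adjusted p = 0.0602). Between genotypes these differences were not called, as given below for the interaction.

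Members with a further role outside the ribosome differed in their values. RPL5 and RPL11 form a complex with 5S RNA that can also bind the p53 regulator MDM2. Rpl11 had 297, 296, 273 and 318.5 CPM in MUT IP against 181, 224, 158 and 196 CPM in MUT input, and 212, 206.5 and 208 CPM in WT IP against 167, 157 and 135 CPM in WT input, without overlap between fractions (0.65 ± 0.13 in MUT and 0.77 ± 0.09 in WT, edgeR adjusted p = 0.033 and 0.0118). Rpl5 was at 6.72, 5.83, 3.83 and 4.54 CPM in MUT IP and 18.4, 4.01, 9.89 and 21.9 CPM in MUT input, and at 5.11, 4.11 and 1.65 CPM in WT IP and 16.4, 14.9 and 18.5 CPM in WT input. It held only 6.28% of its reads in input, and its change did not pass the test in either genotype (-1.17 in MUT and -2.01 in WT, edgeR adjusted p = 0.571 and 0.0765). With the reads of its copies added, it was at 0.30 in MUT (edgeR, adjusted p = 0.28) and at 0.69 in WT (edgeR, adjusted p = 0.0279), so the direction of Rpl5 depends on where its reads are counted.

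Rps6, the target of the S6 kinases, was the gene with a TOP run that did not pass the test. It had 70.7, 27.6, 124 and 85.9 CPM in MUT IP and 144, 24.6, 61.8 and 62.5 CPM in MUT input, and 119, 114 and 78.7 CPM in WT IP and 129.5, 65.7 and 65.4 CPM in WT input. The fractions overlapped in both genotypes, at 0.16 ± 0.37 in MUT and 0.62 ± 0.22 in WT (edgeR, adjusted p = 0.84 and 0.149), and Rps6 held 26.1% of its reads in input. Rpsa, which also encodes the laminin receptor, had 260.5, 374, 430.1 and 375 CPM in MUT IP and 306, 247, 303 and 351 CPM in MUT input, with overlap, and 260.4, 287 and 294 CPM in WT IP against 243, 212 and 235 CPM in WT input, without it (0.24 in MUT and 0.60 in WT, edgeR adjusted p = 0.43 and 0.0352).

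Paralogues within the set were measured unequally. Rpl36al, on chromosome 12, had 139, 129, 141 and 165.5 CPM in MUT IP against 95.3, 47.7, 78.7 and 93.1 CPM in MUT input, and 132, 116 and 151 CPM in WT IP against 93.2, 88.5 and 87.1 CPM in WT input (0.91 in MUT and 0.87 in WT, edgeR adjusted p = 0.0276 and 0.0124). Its X-linked partner Rpl36a was lower in level, at 10.2 to 47.5 CPM in MUT IP and 7.33 to 25.2 CPM in MUT input, and at 16.0 to 20.4 CPM in WT IP and 12.4 to 17.2 CPM in WT input, and did not pass the test (edgeR, adjusted p = 0.83 and 0.0924). Rpl36a held 36.2% of its reads. Rpl7l1, a divergent paralogue of Rpl7, had 59.9, 72.2, 68.3 and 71.1 CPM in MUT IP against 25.2, 31.8, 48.8 and 53.1 CPM in MUT input, and 98.5, 94.3 and 88.6 CPM in WT IP against 52.6, 45.9 and 51.5 CPM in WT input. It was called in WT (1.22, edgeR adjusted p = 0.0085), and in MUT it was at 0.83 (edgeR, adjusted p = 0.0708) although the fractions did not overlap. Rpl3l was at 0 in all 4 MUT IP libraries and did not exceed 2.44 CPM in any library.

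Calls were fewer among genes whose reads are shared with copies. Of the 46 members that held over 90% of their reads in input, 25 of 45 tested were higher in MUT IP and 2 lower (median 0.84), and 40 of 46 were higher in WT IP and 2 lower (median 1.07). Of the 29 members at 90% or less, 8 were higher in MUT (median 0.43) and 12 in WT (median 0.70). When the reads of all near-identical copies were added to each gene, the WT calls were 62 higher and 2 lower. Rps12 was at 0 in the IP of 3 MUT animals and at 2.78 CPM in the other, and at 3.74, 4.40 and 5.84 CPM in WT IP, with 2.72% of its reads in the gene, so no fold is given. The share of member counts assigned to non-coding transcripts of the same genes was 9.72% to 12.5% in MUT IP and 9.76% to 12.0% in MUT input, and 7.81% to 8.99% in WT IP and 8.40% to 10.1% in WT input.

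Between MUT and WT, no ribosomal protein mRNA passed the edgeR test in either fraction. In IP, 0 of 74 members were called between MUT and WT by edgeR, where 0.00382% of all 26186 features were higher and 0.00382% lower, and 5 members were higher and 2 lower with unadjusted p under 0.05 (1.34% and 10.3% of all features). At the same unadjusted p, 18 were higher and 2 lower with RLE factors, 20 and 2 with upper-quartile factors, and 20 and 1 with no TMM factor. The share of all features at that p is not given for these settings, so these counts stand without a background. The factors also moved the median over all features, which was -0.16 in the main fit. The counts are therefore not read as a result about the members. After adjustment edgeR called 0 in each. The members' median log2 fold change in IP was then 0.238, 0.241 and 0.28, beside -0.05, -0.048 and -0.009 over all features. Among annotated protein-coding genes edgeR called 0.00726% lower in IP and 0.00649% higher in input. DESeq2 called 10 members higher and 2 lower in IP (1.63% and 7.94% of all features). The median log2 fold change was 0.13 in IP (0.16 for the large subunit and 0.12 for the small), with 50 of 74 above 0, beside -0.16 over all features. In input, 0 of 75 members were called by edgeR, where 0.00547% of all 36572 features were higher and 0.00273% lower, 4 were higher and 2 lower with unadjusted p under 0.05 (1.6% and 4.76% of all features), and DESeq2 called 2 higher and none lower (0.962% and 2.16%). The median there was -0.03 with 33 of 75 above 0, beside -0.18 over all features. On the log2(TPM + 0.1) scale the median was 0.09 in IP and -0.27 in input (12 of 75 above 0), beside -0.52 and -0.57 over all features.

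Some members did not overlap between genotypes, and those are named here because of their values. In IP, 6 were higher in all 4 MUT than in all 3 WT libraries (among them Rpl11, Rpl23, Rpl36 and Rps16), where 1.72% of all features were, and 4 were lower (Rpl6, Rpl7l1, Rps12 and Rps13), where 15.1% of all features were. In input, 2 were higher (Rpl3 and Rpsa) against 2.47% of all features, and 4 lower (Rpl23a, Rpl24, Rpl37 and Rps25) against 11.3%. Without TMM scaling the counts in IP were 15 higher and 4 lower (3.64% and 11.8% of all features), and in input 6 higher and 3 lower (3.45% and 9.58%).

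In IP, Rpl11 had a log2 fold change of MUT over WT of 0.53 ± 0.09 (edgeR, unadjusted p = 0.000489, adjusted p = 0.114), from the values given above. With copies added the difference was 0.33 (edgeR, adjusted p = 0.114). Rps13, an early-binding small-subunit protein, had 19.6, 27.9, 22.5 and 35.3 CPM in MUT IP and 78.2, 78.0 and 54.6 CPM in WT IP, all MUT libraries being lower, with a difference of -1.39 ± 0.25 (edgeR, unadjusted p = 0.000648, adjusted p = 0.114). Rps13 held 32.8% of its reads in input, and with copies added the difference was -0.07 (edgeR, adjusted p = 1.0). Rpl7l1 was at -0.44 ± 0.12 (edgeR, unadjusted p = 0.00779, adjusted p = 0.114). In input, Rpl23a, at the exit tunnel, had 80.6, 91.2, 77.1 and 89.4 CPM in MUT and 116, 111 and 100.8 CPM in WT (-0.36 ± 0.12, edgeR adjusted p = 0.435). Rpsa was at 0.40 ± 0.12 in input (edgeR, adjusted p = 0.394), and DESeq2 called it (adjusted p = 0.00138). In IP, DESeq2 also called Rpl11, Rps13 and Rpl7l1 (DESeq2, adjusted p = 4.13e-13, 6.24e-05 and 0.0444). It did not call Rpl23a in input (DESeq2, adjusted p = 0.308). None of these passed the edgeR test over all features.

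**Figure D4:**
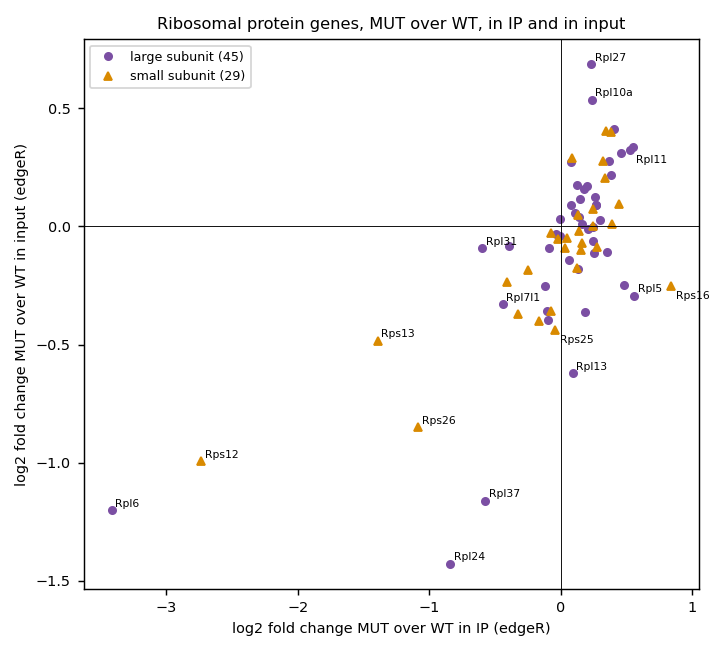
Log2 fold change of MUT over WT (edgeR) of each tested ribosomal protein gene in IP (x axis) and in input (y axis), with large-subunit and small-subunit genes marked apart. Most genes lie within 0.5 of 0 on both axes, none passed the test, and Rpl6, Rps12 and Rps13 lie farthest to the left.

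The test of the difference itself, whether IP over input differed between MUT and WT, called 0 of 70 members by edgeR and none by DESeq2. The background shares were 0.0% in each direction with edgeR, and 0.212% higher and 5.9% lower with DESeq2, of 16014 features. At an unadjusted p under 0.05, 1 member was lower and none higher (6.74% and 0.475% of all features). The members' median was 0.11 with 47 of 70 above 0, beside -0.29 over all features, and it was -0.10 without WT animal 17 and -0.07 without MUT animal 93. That member was Rps13, whose IP/input ratio averaged 0.804 in MUT and 1.61 in WT (interaction -0.97 ± 0.29, edgeR unadjusted p = 0.0102, adjusted p = 0.451), and which came to 0.004 with copies added. The IP/input ratio of Rpl21, Rpl30 and Rpl35a was higher in all 4 MUT than in all 3 WT animals (3 of 69 members, where 1.76% of all features were), and that of Rps13 was lower (1 of 69, where 4.45% were). Without TMM scaling 5 were higher (3.36% of all features) and 1 lower (2.64%).

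Related genes came from 5 lists: partners of the ribosome, other TOP mRNAs, assembly factors, RNA polymerase I and its factors, and regulators of TOP mRNAs. Together, 25 of 75 tested were higher in MUT IP and 3 lower, and 46 of 75 were higher in WT IP and 3 lower. Of all tested features, 6.35% were higher and 3.56% lower in MUT IP, and 13.0% and 6.37% in WT IP. Among annotated protein-coding genes, 9.78% were higher and 4.57% lower in MUT IP, and 24.8% and 7.76% in WT IP. The 5 lists were drawn up with earlier results of these data known. Rack1, a scaffold on the small subunit, was called in WT only (0.29 in MUT and 0.92 in WT, edgeR adjusted p = 0.285 and 0.0188). Of 18 other mRNAs known to carry TOP tracts, 7 were higher in MUT IP and 1 lower (median 0.39), and 11 were higher in WT IP and 2 lower (median 0.49). Nap1l1, a histone chaperone, was higher in both (1.96 in MUT and 2.08 in WT, edgeR adjusted p = 0.0044 and 0.00634), while the lower genes, named here because of their values, were Vim and Tpt1 in WT and Pabpc1 in MUT. Vim, the intermediate filament vimentin of somatic cells, was at -2.44 in WT (edgeR, adjusted p = 0.00823), and Tpt1, the translationally controlled tumour protein, at -0.57 (edgeR, adjusted p = 0.0254). Pabpc1, the poly(A)-binding protein, was at -1.11 in MUT (edgeR, adjusted p = 0.0155) and at -0.67 in WT (edgeR, adjusted p = 0.0767).

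Of 32 ribosome assembly factors, 16 were higher in MUT IP (median 0.90) and 24 in WT IP (median 1.32). They include Fbl, the methyltransferase of nucleolar RNA (1.73 in MUT and 2.14 in WT, edgeR adjusted p = 0.00387 and 0.00634), and Eif6, which keeps free large subunits apart from small ones (1.69 in MUT and 2.05 in WT, edgeR adjusted p = 0.00655 and 0.00756). Npm1, nucleophosmin, belongs to the list of other TOP mRNAs above and was higher as well (0.98 in MUT and 1.18 in WT, edgeR adjusted p = 0.00279 and 0.00749). Of 12 genes of RNA polymerase I and its factors, 1 was lower in MUT IP, and 7 were higher in WT IP and 1 lower. The lower gene was Taf1d in both (-1.26 in MUT and -1.27 in WT, edgeR adjusted p = 0.0182 and 0.0147), and Polr1c, a subunit shared with RNA polymerase III, was higher in WT (1.46, edgeR adjusted p = 0.00668). Of 10 tested regulators of TOP mRNAs, Larp1 was higher in both genotypes (0.69 in MUT and 1.02 in WT, edgeR adjusted p = 0.00634 and 0.00642), Mtor, the kinase above it, was higher in WT (0.77, edgeR adjusted p = 0.00804), and Eif4ebp2, a repressor of the cap-binding protein, was lower in MUT (-1.50, edgeR adjusted p = 0.04). Between genotypes, edgeR called 0 genes of these lists. At an unadjusted p under 0.05, 8 were higher and 4 lower in IP (1.34% and 10.3% of all features) and 5 higher and 6 lower in input (1.6% and 4.76%). DESeq2 called 11 higher and 2 lower in IP (1.63% and 7.94% of all features) and 5 higher and 1 lower in input (0.962% and 2.16%). In the interaction, edgeR called 0, with 1 lower at an unadjusted p under 0.05 (6.74% of all features), and DESeq2 called 1 lower (5.9%).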

How the data were processed

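The authors prepared stranded, rRNA-depleted paired-end libraries, removed ribosomal RNA reads with Bowtie2, trimmed with Trimmomatic and ran RSEM 1.3.3 on GRCm38 transcripts expanded with assembled testis transcripts. The deposited tables give, per transcript and library, an expected count, which RSEM divides between transcripts that share reads and need not be whole, and a TPM, relative to transcript length and library.

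Expected counts were summed over the Ensembl transcripts of each symbol (102531 features in all, 92 spike-ins left out) and rounded. Fits were made with edgeR 4.0.16 (R 4.3.3): features passing filterByExpr, TMM factors, quasi-likelihood test with robust fits, Benjamini-Hochberg adjustment over all features tested, called at an adjusted p under 0.05. IP against input was fitted per genotype with the animal as a block, since both libraries came from the same animal. The correlation of deviations within an animal was 0.085 to 0.144 in WT, where each animal was its own best match. It was 0.013 to 0.035 in MUT, where animals 69, 93 and 94 matched another animal best (12, 94 and 93). In MUT the block therefore rests on the labels and not on these correlations. MUT against WT was fitted per fraction, and the interaction on all animals. CPM values were scaled with TMM factors over all 14 libraries. List and marker genes came from the same fits. Named members were those with the 4 highest and 3 lowest input TPM of each subunit, the 5 called genes of lowest p in each direction of a comparison, or the 3 of lowest p where none was called, with members of known roles (the stalk, Rpl5, Rpl11, Rps6, Rpsa and paralogues). Members and lists were chosen with earlier results of these data known.

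Alternatives were DESeq2 1.42.0, other size factors, no filter or at least 10 counts in every library, limma 3.58.1 on log2(TPM + 0.1) or log2(TPM + 1), protein-coding transcripts only, named pseudogenes added, no block and animals left out. Adding near-identical copies (BLAST+ 2.17.0, 95% identity over 80% of the coding sequence) and leaving out the TMM factor were chosen after seeing the data. The code was tested on simulated counts. Library totals were 22987974 to 30871330 fragments, and some genes of a few CPM were measured with low precision. For Rpl12, at 3.86 CPM in MUT input, the standard error of MUT over WT was 0.97 in input and 1.7 in IP (log2). The source of this spread was not tested. Results for a few single genes are not reported here.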

Additional observations from a re-analysis of the deposited data

Results flagged for a closer look

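In 115 groups of 4 MUT values, 6 had a library whose gap to the nearest other exceeded Dixon's 95% critical value, and chance gives about 1 in 20. Rpl12 had an IP/input ratio of 7.24 in MUT animal 69, against 0 to 0.88 in the other MUT animals, and Rpl5 had 1.45 in animal 69, against 0.207 to 0.387. Both genes held few of their own reads. Rpl3l had 2.44 CPM in the input of MUT animal 12, against 0 to 0.4 CPM in the other MUT inputs, and Rpl41 had 260 CPM in that input, against 152 to 170.4 CPM. Rpl7a had 518 CPM in the IP of MUT animal 69, against 667 to 696 CPM in the others. Rps12 had 2.78 CPM in the IP of MUT animal 94 and was at 0 in the other 3.

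Rps13 had an IP/input ratio below 1 in all 4 MUT animals (mean 0.804) and above 1 in all 3 WT animals (mean 1.61). The interaction did not pass the test (edgeR, adjusted p = 0.451), and with the reads of near-identical copies added it was 0.004.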

How the results depend on the processing

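Members called between genotypes were 0 in edgeR under every setting run, and DESeq2 called 2 in input and 12 in IP. For IP against input in MUT the count of 35 became 56 with limma on log2(TPM + 1) and 0 with animals 12 and 69 left out together, and ranged from 15 to 36 with each animal left out. In WT the count of 54 ranged from 0 to 40 with each animal left out, where fewer samples enter the fit. Without the replicate block, which the shared animal justifies, the counts were 39 in MUT, 57 in WT and 0 in the interaction. Single named members: 1 value in WT and 1 in MUT changed sign while called, both with near-identical copies added, which moves the reads of copies into the gene. Rpl5 in WT was then 0.69 (main value -2.01), and Rpl27 in MUT 1.10 (main value -0.11). In WT, 73 of 539 values lost and 40 gained a call, and in MUT 46 and 33 of 586.

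The ratio of large to small subunit was 1.57 in MUT IP, 1.63 in MUT input, 1.52 in WT IP and 1.57 in WT input by sums of TPM, 0.855, 0.864, 0.789 and 0.804 by mean log2 TPM, 1.53, 1.57, 1.51 and 1.55 with named pseudogenes added, and 1.65, 1.70, 1.64 and 1.66 with copies added. The share of counts was 5.17%, 1.46%, 4.71% and 1.76% by TPM, in the same order, 1.91%, 1.17%, 1.60% and 1.14% from protein-coding transcripts, 2.66%, 1.66%, 2.15% and 1.57% with copies added, and 1.46%, 1.91% and 1.38% in MUT input, WT IP and WT input with named pseudogenes added. IP stayed above input in each. A share cannot be had from mean log2 TPM. The cause of these shifts was not tested beyond what each setting adds or removes. Few animals, reads shared with copies and fewer genes detected in MUT IP limit the comparisons, and with 3 animals a test in WT rests on 2 pairs as soon as 1 is left out.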
